A study of Mus musculus with 21 samples.

Results

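The lysosomal genes described here are 46 of the 47729 genes in the deposited count table, and 46 of its 22048 protein-coding genes. They were selected by gene symbol from a fixed list of lysosomal names. The rule uses no measured value, but the list was chosen with earlier results of these data known. By role they fall into 15 subunits and accessory proteins of the V-ATPase (symbols beginning with Atp6), 25 hydrolases and other proteins of the lysosomal lumen, and 6 proteins of the lysosomal membrane. All 46 passed the filter on low counts in both experiments of the series.

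RNA was measured by SMART-seq2, a full-length RNA-seq method for small inputs that does not mark strand, in haematopoietic stem cells (HSCs) sorted from mouse bone marrow as CD150-positive, CD48-negative cells that were also lineage-negative, Sca-1-positive and Kit-positive. The series holds 21 libraries in 7 groups of 3. The treatment experiment has 12 libraries: Mx1-Cre;Atg5fl/fl mice given bortezomib, Mx1-Cre;Atg5fl/fl mice given DMSO, WT mice given bortezomib, and WT mice given DMSO. Bortezomib, a proteasome inhibitor, was given at 10 mg/kg, and the vehicle as 10% DMSO, each by retro-orbital injection 48 h and again 24 h before the cells were taken. Mx1-Cre is a recombinase under an interferon-inducible promoter that acts in blood cells and in other tissues, and Atg5 is needed to form autophagosomes. The reporter experiment has 9 libraries from untreated mice that carry RFP-EGFP-LC3, an autophagosome protein with a red and an acid-sensitive green label, sorted as RFP single positive, RFP and EGFP double positive, or double negative HSCs. The labels give no ages and do not say whether replicates came from separate mice, so p-values measure the spread between these libraries, which may be technical.

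Lysosomes are acidic compartments in which enzymes break down proteins, lipids, glycans and nucleic acids delivered by endocytosis and by autophagy. The V-ATPase pumps protons into them, with a membrane sector (V0) that carries the protons and a cytosolic sector (V1) that splits ATP. Membrane proteins line the compartment, export its products and release its calcium. Many lysosomal genes are known targets of the transcription factors TFEB and TFE3, and lysosomal activity is known to bear on whether HSCs rest or divide.

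Library totals ran from 15005500 to 31481691 counts, and the lowest count of any member in any library was 74, for Gla. Values below are CPM, counts scaled to a common library size after TMM scaling, unless given per transcript length as TPM. Atg5 was not lower in the libraries labelled as knockout. It had 95.2, 95.4 and 142 CPM in the 3 bortezomib libraries labelled knockout and 114, 113 and 107 CPM in the 3 DMSO ones, against 100.4, 72.1 and 135 CPM in WT bortezomib and 54.95, 39.9 and 74.6 CPM in WT DMSO libraries. A count over the whole gene does not check the deletion of an exon, so the libraries are called knockout-labelled here. HSC markers such as Kit and Procr summed to 2082 CPM or more in every library. The share of Xist in Xist plus Ddx3y counts, a marker of sex, was 0.987% or lower in all 3 knockout-labelled DMSO libraries and 60.0% or higher in all 3 WT DMSO libraries, so sex markers and genotype cannot be told apart in that pair. In the bortezomib groups it was 100%, 0% and 3.51% in knockout-labelled libraries and 46.4%, 31.8% and 90.3% in WT libraries. In a principal component analysis, WT DMSO 3, knockout-labelled bortezomib 3 and WT bortezomib 3 stood highest on the third component (scores 41.2, 27.8 and 14.7), and the results below are also given without these 3 libraries.

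Levels per length spanned a wide range within each role. Among membrane proteins Cd63, a tetraspanin, stood first with a mean of 1388 TPM over the 21 libraries, followed by the heavily glycosylated coat proteins Lamp1 with 346 TPM and Lamp2 with 246 TPM. Ctsd, an aspartic protease, led the lumen with 557 TPM, ahead of Psap, the precursor of the saposins that help degrade sphingolipids, with 363 TPM and Grn (progranulin) with 226 TPM. The most abundant V-ATPase messages were Atp6v1f with 573 TPM, Atp6v0b with 348 TPM and Atp6v1g1 with 282 TPM. The lowest members were Gla, which removes galactose from glycolipids, with 5.41 TPM, Sgsh, a heparan sulfatase, with 7.58 TPM and Npc1, the cholesterol exporter, with 7.81 TPM. On GRCm38 with GENCODE M21, Ctss lies on the plus strand at chr3:95526786-95556403, Gaa on the plus strand at chr11:119267887-119285454, Gusb on the minus strand at chr5:129989011-130003049 and Atp6v0a1 on the plus strand at chr11:101009452-101063719. Exons of 16 members overlap those of another annotated gene, among them Ctsl, Ctsd, Ctsb, Grn, Hexa, Idua, Lamp1, Npc1, Sgsh and Atp6v1h. Reads in overlaps on opposite strands cannot be told apart here, because the library kit does not mark strand. Ctsd, Ctsl and Glb1 overlap a gene on the same strand, where strand could not separate the reads. The pseudogene Cd63-ps, whose reads may be exchanged with those of Cd63, had 6.40 to 29.8 CPM.

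The members' promoters are shown because the group contains known targets of TFEB and TFE3, whose binding motif, named CLEAR, has the palindromic core TCACGTGA. RefSeq start sites on GRCm38.p6 gave a window, from 250 bases before the start to 50 bases after it, for 39 of the 46 genes. The core stood in 7 of these 39 promoters (17.9%), against 304 of 27025 promoters of all genes (1.12%). It reads the same on both strands, and it contains the shorter motif CACGTG. The shorter motif was found in 13 of the 39 promoters (33.3%) and in 8.09% of all promoters. As the members include known targets of these factors, the contrasts with all promoters are not independent results. The 7 genes were Atp6v0d1, Atp6v0e, Atp6v1a, Ctsa, Ctsd, Gla and Mcoln1. Of these, 4 also passed the expression test in at least one comparison below, and their windows are printed 5′ to 3′ on the strand of the gene, with the core in capitals. Mcoln1 lies at chr8:3500269-3500568 on the plus strand, with the core starting at position -46 from the transcript start. Ctsd lies at chr7:142387778-142388077 on the minus strand, with the core at -99. For Atp6v1a the window is chr16:44139210-44139509 on the minus strand, with the core at -132. For Atp6v0e it is chr17:26676146-26676445 on the plus strand, with the core at 3.
Mcoln1: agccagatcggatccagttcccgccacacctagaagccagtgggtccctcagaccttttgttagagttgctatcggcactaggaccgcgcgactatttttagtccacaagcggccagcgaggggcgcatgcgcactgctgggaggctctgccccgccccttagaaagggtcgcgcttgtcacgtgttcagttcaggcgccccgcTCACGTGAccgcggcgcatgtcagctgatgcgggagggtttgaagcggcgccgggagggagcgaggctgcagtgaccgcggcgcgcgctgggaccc
Ctsd: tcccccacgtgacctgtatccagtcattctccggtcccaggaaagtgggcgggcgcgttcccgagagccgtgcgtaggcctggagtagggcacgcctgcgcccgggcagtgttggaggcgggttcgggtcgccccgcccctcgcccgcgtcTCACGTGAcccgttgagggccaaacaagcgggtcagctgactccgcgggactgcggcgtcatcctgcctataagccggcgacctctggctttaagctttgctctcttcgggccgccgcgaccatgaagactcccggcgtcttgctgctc
Atp6v1a: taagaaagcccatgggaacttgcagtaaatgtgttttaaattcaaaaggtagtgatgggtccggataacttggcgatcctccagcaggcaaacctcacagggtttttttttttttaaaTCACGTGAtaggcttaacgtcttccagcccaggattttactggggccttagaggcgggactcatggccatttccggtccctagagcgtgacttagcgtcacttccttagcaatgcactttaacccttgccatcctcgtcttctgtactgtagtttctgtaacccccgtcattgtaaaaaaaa
Atp6v0e: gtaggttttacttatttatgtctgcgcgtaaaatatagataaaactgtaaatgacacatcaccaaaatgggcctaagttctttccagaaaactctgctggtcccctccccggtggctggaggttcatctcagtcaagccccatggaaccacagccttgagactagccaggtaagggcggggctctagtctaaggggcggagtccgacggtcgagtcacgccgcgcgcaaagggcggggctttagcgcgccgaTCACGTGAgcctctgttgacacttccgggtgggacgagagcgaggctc
A match of letters is a description of the window and not a measured binding site. The 4 genes did not share one direction between genotypes under bortezomib: Mcoln1 and Atp6v1a were higher in knockout-labelled cells, Atp6v0e was lower, and Ctsd did not pass the test (adjusted p = 0.0636, edgeR).

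**Figure D1:**
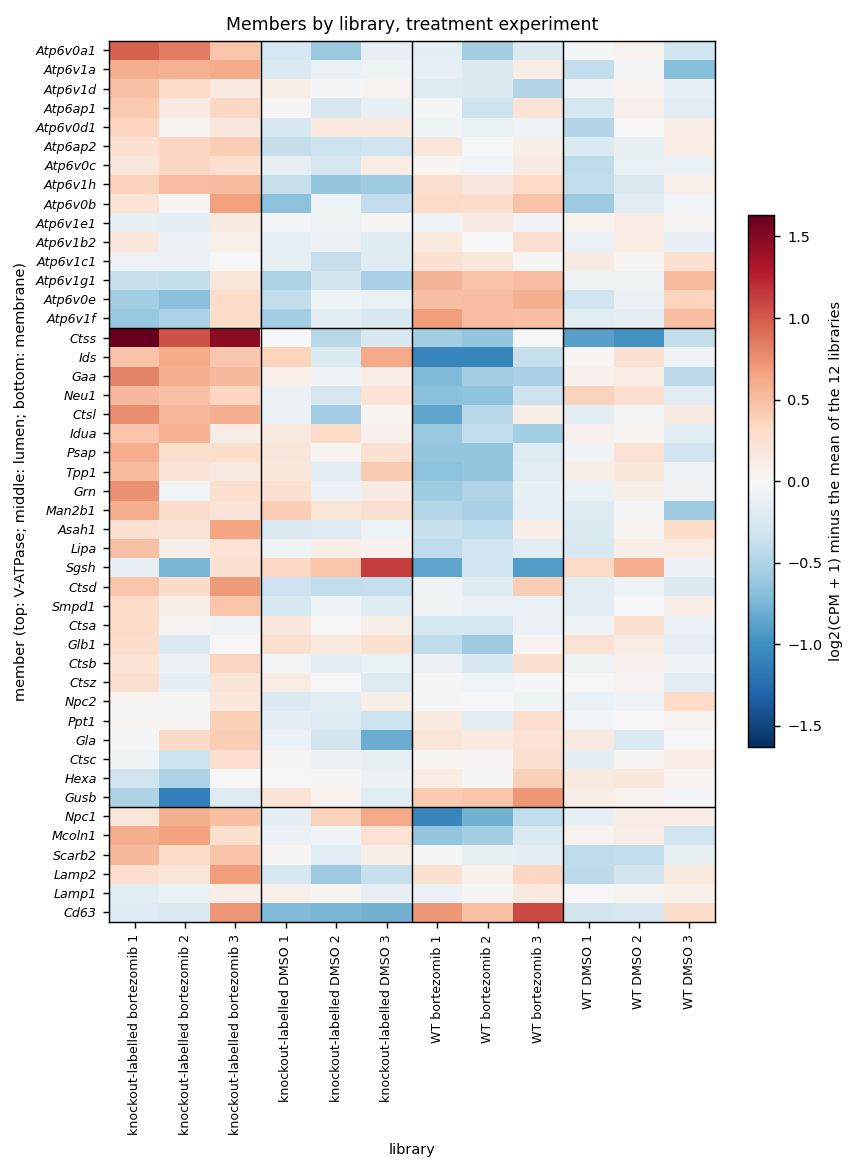
Members in rows, by role, against the 12 libraries of the treatment experiment in columns, coloured by log2(CPM + 1) minus the mean of the 12 libraries (red above, blue below). Most lumen genes are red in the knockout-labelled bortezomib columns and blue in the WT bortezomib columns, while Gusb shows the opposite pattern. The V-ATPase genes Atp6v1f, Atp6v1g1 and Atp6v0e do so too, except in knockout-labelled bortezomib 3, where they lie above the mean.

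Under bortezomib, knockout-labelled HSCs differed from WT HSCs in 23 of the 46 lysosomal genes. Of these, 18 were higher and 5 lower in knockout-labelled cells, at a Benjamini-Hochberg adjusted p under 0.05 in edgeR's quasi-likelihood test over 16149 genes. In this comparison 32.4% of all genes passed the test, 17.2% higher and 15.3% lower (2770 and 2464 genes, or 1932 and 3012 after offsets for the length and GC content of transcripts). The CPM ranges of the groups did not overlap for 31 of the 46 members and for 44.1% of all genes. Lumen genes made up most of the rises, with 12 of 25 higher and 2 lower, while the V-ATPase was split with 3 of 15 higher and 3 lower, and 3 of 6 membrane genes were higher and none lower. The median log2 fold change was 0.56 in the lumen, 0.36 in the membrane and 0.21 in the V-ATPase, against 0.08 over all genes tested. Without the 3 libraries that stood apart, 20 members were higher and 6 lower, beside 3331 and 3118 of 16410 genes. With the Xist share as a covariate 20 were higher and 4 lower, beside 2693 and 2525 of 16149 genes. In bulk libraries, fewer cells of a type and less RNA per cell cannot be told apart.

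Among the cathepsins, the cysteine protease Ctss, best known for processing antigens, had 155, 102 and 139 CPM in knockout-labelled bortezomib libraries and 33.2, 31.6 and 49.8 CPM in WT bortezomib libraries. The lowest knockout-labelled value was above the highest WT value, and the groups differed 3.46-fold (log2 fold change 1.79, SE 0.24, adjusted p = 0.000178). A second cysteine protease, Ctsl, had 162, 139 and 143 CPM against 52.4, 69.4 and 102 CPM in WT (log2 0.99, SE 0.22, adjusted p = 0.00332). Its groups did not overlap, although WT bortezomib 3 lay closer to the knockout-labelled libraries than the other two did. After offsets for the length and GC content of transcripts, the Ctsl difference no longer passed (log2 fold change 0.61, adjusted p = 0.0652). Ctsd, Ctsb, Ctsa, Ctsc and Ctsz did not pass the test, with log2 fold changes of 0.43, 0.19, 0.33, -0.14 and 0.15. The lysosomal peptidase Tpp1 was higher by 0.78 on the log2 scale (SE 0.19, adjusted p = 0.00535).

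Enzymes of glycan breakdown included both directions. Gaa, which degrades glycogen, had 471, 403 and 388 CPM in knockout-labelled bortezomib libraries and 162, 183 and 186 CPM in WT bortezomib libraries, 2.37-fold apart (log2 fold change 1.24, SE 0.17, adjusted p = 0.000182). The lowest knockout-labelled bortezomib library was above every other library of the experiment. The X-linked sulfatase Ids, which acts on dermatan and heparan sulfate, had 59.7, 65.5 and 58.7 CPM against 19.98, 19.98 and 32.8 CPM in WT (log2 1.34, SE 0.24, adjusted p = 0.000772). Idua, the next enzyme in that pathway, had 54.4, 58.96 and 42.7 CPM against 25.5, 29.9 and 26.6 CPM (log2 0.93, SE 0.18, adjusted p = 0.00136). For both genes every knockout-labelled library exceeded every WT library. The sialidase Neu1 had 42.7, 41.3 and 37.7 CPM in knockout-labelled libraries and 17.9, 18.3 and 22.9 CPM in WT libraries, again without overlap (log2 1.04, SE 0.21, adjusted p = 0.00183). Man2b1, an alpha-mannosidase, was higher by 0.74 (SE 0.18, adjusted p = 0.00516). Gusb, the beta-glucuronidase that removes glucuronic acid from the same glycosaminoglycans, went the other way. It had 108, 70.1 and 132 CPM in knockout-labelled libraries, against 206, 211 and 252 CPM in WT libraries, and the highest knockout-labelled value lay below the lowest WT value (log2 -1.11, SE 0.20, adjusted p = 0.000872). Hexa, the alpha subunit of beta-hexosaminidase, was lower by a smaller margin, with 139, 122 and 173 CPM against 188, 176 and 226 CPM in WT (log2 -0.45, SE 0.16, adjusted p = 0.0443). The Hexa groups came within a few CPM of each other, and its adjusted p reached 0.179 when 1 library was left out (knockout-labelled bortezomib 2).

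Psap and 3 further lumen genes were also higher. Psap had 659 ± 87.4 CPM in knockout-labelled and 363 ± 64.4 CPM in WT bortezomib libraries (SD, n = 3 each; edgeR log2 0.86, SE 0.18, adjusted p = 0.00219). Grn was higher by 0.74 on the log2 scale, the acid lipase Lipa by 0.59 and the ceramidase Asah1 by 0.59, with adjusted p of 0.00939, 0.0137 and 0.0237. Of the remaining lumen genes, Glb1, Smpd1, Sgsh, Ppt1, Gla and Npc2 did not pass the test, and their log2 fold changes lay between 0.05 (Gla) and 0.56 (Sgsh).

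In the membrane group, Mcoln1, the cation channel TRPML1 that releases calcium from lysosomes, had 62.6, 65.5 and 49.9 CPM in knockout-labelled bortezomib libraries and 26.1, 27.8 and 34.8 CPM in WT bortezomib libraries (log2 fold change 1.00, SE 0.20, adjusted p = 0.0015). Npc1 had 27.4, 35.9 and 33.8 CPM against 10.8, 13.4 and 17.7 CPM in WT (log2 1.21, SE 0.25, adjusted p = 0.00184). Neither gene overlapped between the groups, which stood 2.01-fold apart for Mcoln1 and 2.32-fold apart for Npc1. Scarb2, which carries glucocerebrosidase to lysosomes, was higher by 0.53 (SE 0.16, adjusted p = 0.0199), but missed the threshold without the 3 libraries that stood apart (adjusted p = 0.0518) and with length and GC offsets (0.338). Lamp1, Lamp2 and Cd63 had log2 fold changes of -0.08, 0.18 and -0.61, none of them past the threshold.

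Within the proton pump the subunits did not move together. Atp6v0a1, an isoform of the large V0 subunit through which protons pass, had 63.5, 58.1 and 44.1 CPM in knockout-labelled bortezomib libraries, against 28.5, 21.6 and 27.1 CPM in WT bortezomib libraries (log2 fold change 1.10, SE 0.21, adjusted p = 0.00124). Atp6v1a, the ATP-splitting subunit, was higher by 0.66 (adjusted p = 0.00874), and Atp6v1d, part of the turning stalk, by 0.63 (adjusted p = 0.00472). The Atp6v1a call did not hold with length and GC offsets (0.41, adjusted p = 0.0668). The 3 lower genes encode small subunits. Atp6v1f had 141, 152 and 268 CPM in knockout-labelled libraries and 349, 309 and 306 CPM in WT libraries (log2 -0.78, SE 0.24, adjusted p = 0.0201). Atp6v0e had 196, 179 and 355 CPM against 405, 406 and 429.6 CPM (log2 -0.76, SE 0.24, adjusted p = 0.0212). Atp6v1g1 had 129, 126 and 190.3 CPM against 244, 228 and 235 CPM (log2 -0.67, SE 0.20, adjusted p = 0.0168). In all 3 the groups did not overlap, and knockout-labelled bortezomib 3 lay nearest to the WT range. Without the 3 libraries that stood apart, their adjusted p was 3.09e-05, 4.06e-05 and 0.000157. The calls of 8 members depended on single libraries. The adjusted p was 0.0662 for Grn, 0.0761 for Lipa, 0.0755 for Scarb2 and 0.0976 for Atp6v1f without knockout-labelled bortezomib 1. It was 0.0773 for Atp6v1g1 and 0.103 for Atp6v0e without knockout-labelled bortezomib 2, as for Hexa above, and 0.106 for Asah1 without WT bortezomib 2. The other 9 V-ATPase members had log2 fold changes between -0.21 (Atp6v1c1) and 0.34 (Atp6ap1), and none passed the test.

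**Figure D2:**
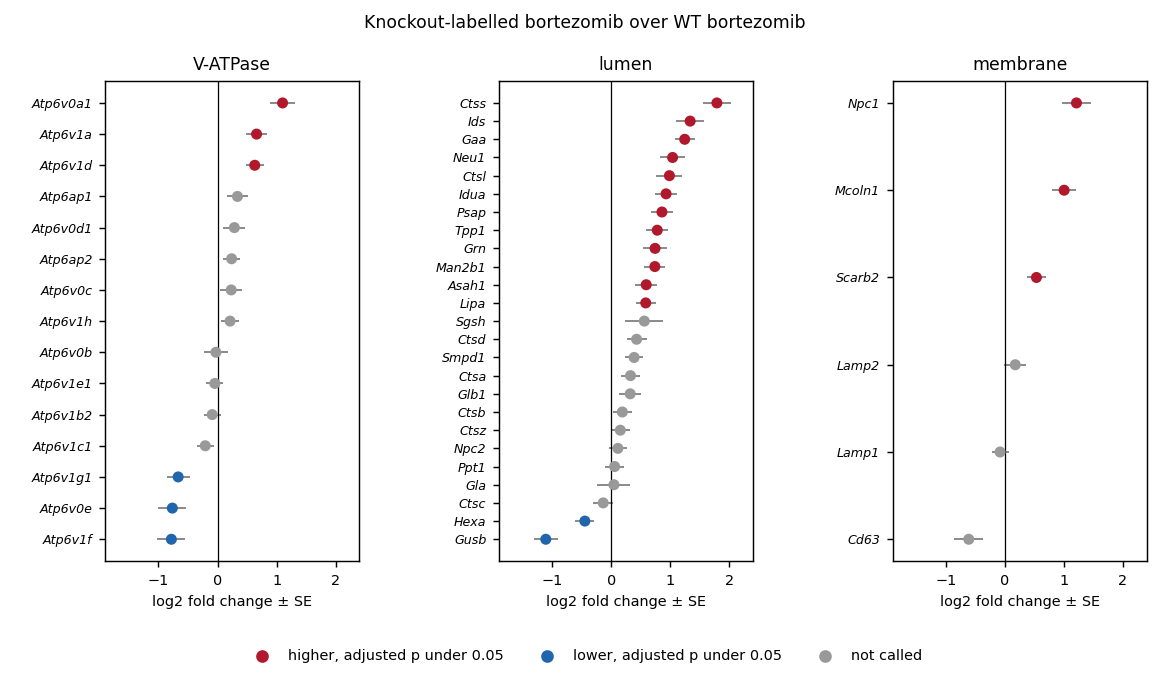
Log2 fold change of each member, knockout-labelled over WT, both with bortezomib (points, with SE as bars), in 3 panels by role. Red points were higher and blue points lower at an adjusted p under 0.05; lumen points lie mostly to the right of 0, up to 1.79 for Ctss, and V-ATPase points lie on both sides.

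Set beside the hydrolases and membrane proteins, the V-ATPase had a median log2 fold change 0.32 lower. The spread of that difference between libraries of one group was 0.14 (SD on the log2 scale). V-ATPase transcripts are shorter, with a median of 2071 bases, against 2969 bases in the lumen and 2916.5 bases in the membrane group. Across the 46 members the log2 fold change rose with length (Spearman's rho 0.49), and rho was 0.30 over 16091 genes. These correlations describe genes measured in the same libraries and carry no p. With offsets for length and GC content, applied together, the gap between V-ATPase and the other members was -0.024, and 15 members were higher and 5 lower. The part of RNA length or quality in the genotype difference was not tested further.

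**Figure D3:**
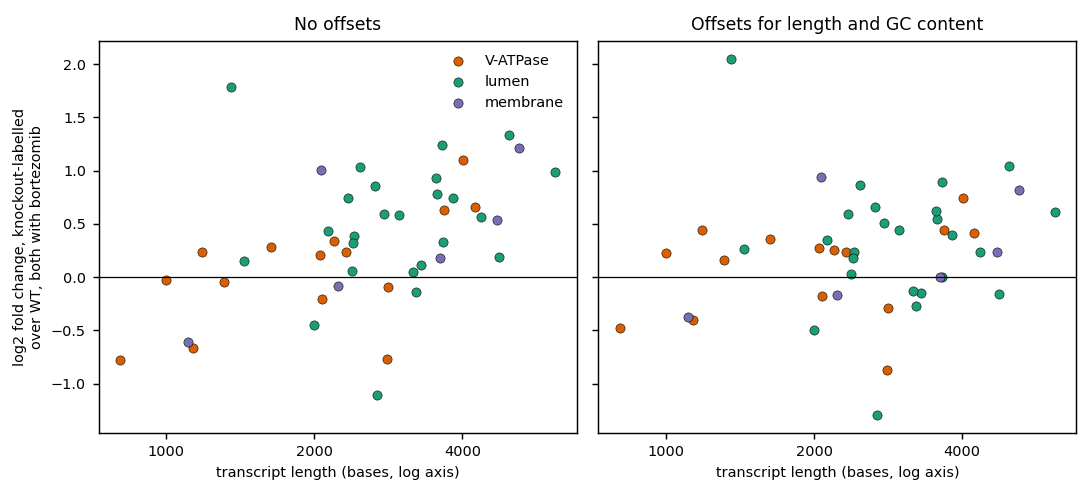
Log2 fold change of each member, knockout-labelled over WT with bortezomib (y axis), against the length of its longest protein-coding transcript in bases (log x axis), without offsets (left) and with offsets for length and GC content (right). Colours mark the roles; shorter V-ATPase transcripts sit lower in the left panel, where rho is 0.49, and the relation is weaker in the right panel, where it is 0.27.

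Markers of other cells moved with this comparison. Of 12 tested monocyte and macrophage markers, 5 passed the test as lower in knockout-labelled cells and none as higher. They were Adgre1 (log2 fold change -2.54), C1qa (-2.59), C1qb (-1.46), C1qc (-2.38) and Mrc1 (-1.45). Their means in knockout-labelled libraries were low, from 0.83 CPM (Adgre1) to 8.39 CPM (C1qb). Clec10a did not pass, with 13.4 ± 1.25 CPM in knockout-labelled and 5.32 ± 3.30 CPM in WT libraries. The summed level of the 13 listed markers was 301.6 to 682 CPM in knockout-labelled bortezomib libraries and 635 to 882 CPM in WT bortezomib libraries. Most of that sum was Lyz2, without which the ranges were 96.3 to 117 CPM in knockout-labelled and 126 to 206 CPM in WT libraries. Vcan was at 0 in the WT bortezomib libraries. The neutrophil marker S100a9 was lower (log2 fold change -1.55), with 3.67 ± 2.16 CPM in knockout-labelled and 10.8 ± 6.61 CPM in WT libraries. Cd48, whose protein the sort excludes, had 8.86 ± 5.41 CPM against 39.8 ± 12.7 CPM in WT (log2 fold change -2.16). Of 12 HSC markers 8 were higher in knockout-labelled cells, Tek by 1.83 and Slamf1 by 1.07, as was the progenitor marker Flt3 (1.30). Of 5 tested endothelial and stromal markers 3 were higher, Pecam1 (1.59), Kdr (3.18) and Col1a2 (1.20), and the summed list had 103 to 123 CPM in knockout-labelled and 41.7 to 66.3 CPM in WT libraries. Of 8 megakaryocyte markers Gp1bb (1.31) and Itga2b (0.89) were higher, while Ppbp (-2.33), Pf4 (-1.15) and Gp9 (-0.94) were lower. Among erythroid markers the globin gene Hba-a1 was higher (2.36) and Hbb-bt lower (-2.90), though near-identical globin copies may exchange reads. Nkg7, 1 of 2 tested T and NK cell markers, was lower (-1.27). The T and NK cell markers Cd3d, Cd3e, Cd3g, Gzma and Il7r were at 0 in both groups. The part of these markers, and of the cells they mark, in the lysosomal differences was not tested.

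Lysosomal genes outside the 46 moved in the same comparison as follows, beside 17.2% of all genes higher and 15.3% lower. Of 24 other lumen genes 9 were higher and 2 lower. The rises included Scpep1, a carboxypeptidase (178 ± 45.1 CPM in knockout-labelled and 44.05 ± 5.85 CPM in WT libraries, log2 fold change 2.01), Ctsf, a cysteine cathepsin (2.07), and Acp2, an acid phosphatase (1.22). Arsb, a sulfatase, was lower (-1.21), as was Naglu (-0.59). Of 19 other membrane genes 7 were higher and none lower, among them the cystine exporter Ctns (1.80), Sidt2 (1.33), the amino acid transporter Slc38a9 (1.30) and Cln3 (1.06). Of 5 tested V-ATPase subunits outside the 46, Tcirg1, the a3 isoform of the large V0 subunit, was higher (1.11). Among 10 V-ATPase assembly factors 3 were lower and none higher, namely Vma21 (-0.85), Ccdc115 (-0.66) and Ncoa7 (-0.59). The Ragulator complex, which anchors mTORC1 on lysosomes, and its partners had 4 of 12 genes lower and 1 higher: Lamtor4 (-0.93), Lamtor1 (-0.87), Lamtor2 (-0.67) and Borcs5 (-0.61) against Flcn (0.74). Of the 4 MiT-TFE transcription factors, Tfe3 was higher, with 67.8 ± 11.8 CPM in knockout-labelled and 31.7 ± 0.634 CPM in WT libraries (1.10, adjusted p = 0.00102). Of 13 genes of mannose 6-phosphate sorting, the route by which hydrolases reach lysosomes, Ap1g1 (0.67) and Sumf1 (0.90) were higher and Ap1s1 (-0.93) lower.

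Under DMSO, no member passed the test between knockout-labelled and WT HSCs. In edgeR 0% of the 16149 genes passed, while 6 of the 46 members and 1454 of all genes had an unadjusted p under 0.05. DESeq2 called 178 genes and none of the members. The members with the smallest p were Man2b1, Atp6v1g1 and Cd63. Man2b1 had 292, 254 and 262 CPM in knockout-labelled DMSO libraries and 192, 217 and 147 CPM in WT DMSO libraries (log2 fold change 0.54, SE 0.18, adjusted p = 0.394). Atp6v1g1 had 116, 135 and 115 CPM against 157, 157 and 238 CPM in WT (log2 -0.59, SE 0.20, adjusted p = 0.394). Cd63 had 448, 439 and 431 CPM against 602, 614 and 907 CPM in WT (log2 -0.69, SE 0.25, adjusted p = 0.422). None of the 3 overlapped between groups, which was so for 10 of the 46 members and 18% of all genes. For Atp6v1g1 and Cd63 the highest WT value came from WT DMSO 3. The median log2 fold change was -0.11 in the V-ATPase, 0.02 in the lumen and 0.02 in the membrane group. The 95% intervals of the member fold changes reached from -1.21 to 1.07 on the log2 scale over all members, with a median SE of 0.18.

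**Figure D4:**
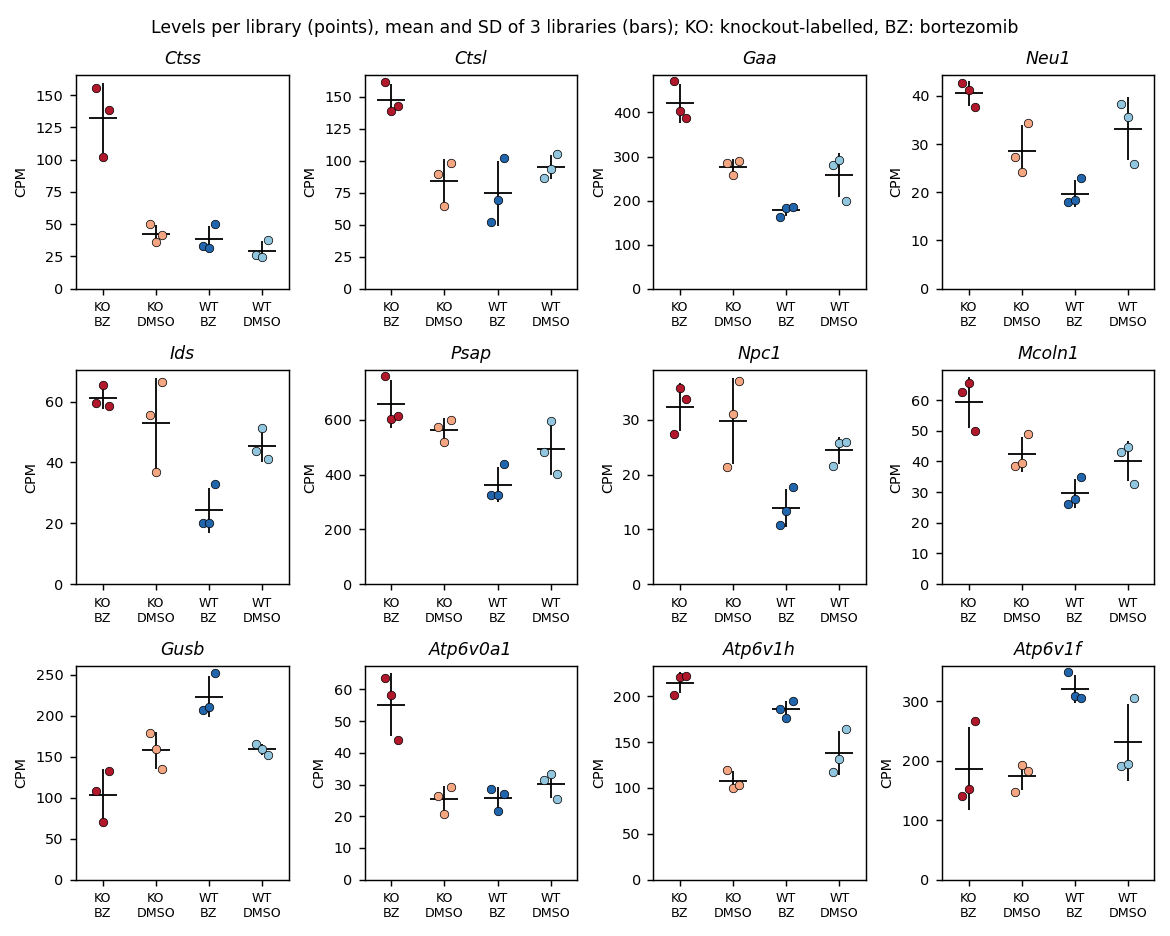
Levels in CPM (y axis from 0) of 12 members in the 4 groups of the treatment experiment, with 1 point per library and the mean and SD of 3 libraries as bars. The knockout-labelled bortezomib libraries stand above the other 3 groups for Ctss, Ctsl, Gaa and Atp6v0a1 and below them for Gusb, while WT bortezomib has the lowest mean for Neu1, Ids, Psap, Npc1 and Mcoln1.

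In WT mice, bortezomib was followed by lower levels of 5 members and a higher level of 1, and 15.5% of all genes passed the test, 7.97% higher and 7.56% lower (1287 and 1221 genes). With length and GC offsets the balance was 2 members lower and 4 higher, beside 1862 genes higher and 942 lower. The groups did not overlap for 17 of the 46 members and for 36.9% of all genes. The 5 lower genes were 4 lumen genes and Npc1. Ids had 19.98, 19.98 and 32.8 CPM with bortezomib, against 43.7, 51.3 and 41.2 CPM with DMSO (log2 fold change -0.90, SE 0.24, adjusted p = 0.0198). Neu1 had 17.9, 18.3 and 22.9 CPM with bortezomib and 38.2, 35.6 and 25.8 CPM with DMSO (log2 -0.75, SE 0.21, adjusted p = 0.0267). In both genes all bortezomib libraries were below all DMSO libraries. Gaa had 162, 183 and 186 CPM with bortezomib and 281, 293 and 199.96 CPM with DMSO (log2 -0.54, SE 0.17, adjusted p = 0.0373). Sgsh, near the lower end of the members' levels, had 7.98, 12.1 and 7.70 CPM against 19.4, 23.6 and 14.3 CPM with DMSO (log2 -1.04, SE 0.32, adjusted p = 0.0389). For Npc1 the values were 10.8, 13.4 and 17.7 CPM with bortezomib and 21.5, 25.8 and 25.95 CPM with DMSO (log2 -0.81, SE 0.25, adjusted p = 0.0373). None of these overlapped between treatments. The 1 rise was Cd63, with 1205, 1025 and 1552 CPM with bortezomib and 602, 614 and 907 CPM with DMSO (log2 0.83, SE 0.25, adjusted p = 0.033), where the highest DMSO library was again WT DMSO 3.

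The WT calls changed with single libraries. None of the 6 held when each library was left out in turn. No member was called without WT DMSO 1, WT DMSO 2 or WT bortezomib 1, beside 983, 731 and 588 of all genes. Without WT DMSO 3 the count was 11 (6 higher and 5 lower), beside 2762 genes. It was 2 without WT bortezomib 2 and 4 without WT bortezomib 3, beside 1325 and 2076 genes. Without the 3 libraries that stood apart, 16 members were called, 7 higher and 9 lower, beside 2102 and 1859 of 16410 genes. With the Xist share as a covariate, Ids alone kept its call (adjusted p = 0.0485), beside 1629 of 16149 genes. The median log2 fold change was 0.19 in the V-ATPase, -0.26 in the lumen and 0.10 in the membrane group, beside -0.04 over all genes. A value above 0 was found for 9 of 25 lumen genes, 11 of 15 V-ATPase genes and 7716 of the 16149 genes tested. Of 12 HSC markers 10 fell with bortezomib in WT mice, and 2 of 12 tested monocyte and macrophage markers rose, Cd68 from the lysosomal membrane of macrophages by 1.34 and Clec10a by 3.46. Cd48 had 39.8 ± 12.7 CPM with bortezomib and 11.2 ± 1.20 CPM with DMSO. The summed monocyte and macrophage markers had ranges of 635 to 882 CPM with bortezomib and 693 to 930 CPM with DMSO. Without Lyz2, which made up most of that sum, the ranges were 126 to 206 CPM with bortezomib and 67.4 to 105 CPM with DMSO, higher in every bortezomib library. Among other markers Epor (0.93), Hbb-bt (1.59) and Nkg7 (1.17) rose, and Hba-a1 (-2.36), Kdr (-3.03) and Pecam1 (-0.91) fell. The part of these markers in the lysosomal changes was not tested.

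Among other lysosomal genes in WT mice, where 15.5% of all genes passed, 4 of 24 lumen genes fell with bortezomib. They included Ctsf (-1.77), Acp2 (-0.89) and Gm2a (-0.69), and 1 lumen gene rose, the protease Lgmn (1.85). Of 19 other membrane genes 4 fell and none rose, namely Ctns (-1.17), Slc38a9 (-1.05), Cln3 (-0.83) and Slc17a5 (-0.70). Igf2r, the large mannose 6-phosphate receptor, fell (log2 fold change -1.71), with 2.34 ± 0.488 CPM with bortezomib and 7.68 ± 1.40 CPM with DMSO, and Ap1s1 rose (0.63). The assembly factor Tmem199 (0.65) and the Ragulator subunit Lamtor4 (0.86) also rose, and no MiT-TFE factor or other V-ATPase subunit passed the test.

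In knockout-labelled mice, bortezomib was followed by higher levels of 7 members and lower levels of none. Of all genes 3.63% passed, 2.02% higher and 1.61% lower. The groups did not overlap for 26 of the 46 members and for 20.3% of all genes. The 7 were 4 V-ATPase genes, 2 cathepsins and Lamp2. Ctss had 155, 102 and 139 CPM with bortezomib, against 49.9, 35.9 and 41.6 CPM with DMSO (log2 fold change 1.64, SE 0.24, adjusted p = 0.00134). Ctsd had 843, 768 and 1000.4 CPM with bortezomib and 489, 467 and 474 CPM with DMSO (log2 0.87, SE 0.17, adjusted p = 0.0101). Both cathepsins were higher in every bortezomib library than in every DMSO library, and the DMSO libraries of Ctsd lay close together. In the pump, the regulatory V1 subunit Atp6v1h had 201, 221 and 222 CPM with bortezomib and 119, 99.5 and 104 CPM with DMSO, a difference of 2.00-fold (log2 1.00, SE 0.16, adjusted p = 0.00252). Atp6v0a1 had 63.5, 58.1 and 44.1 CPM against 26.3, 20.7 and 29.1 CPM (log2 1.12, SE 0.21, adjusted p = 0.00811). Atp6v1a had 231, 226 and 233 CPM against 129.8, 141 and 144 CPM (log2 0.73, SE 0.17, adjusted p = 0.0281). These 3 subunits also differed without overlap, with bortezomib libraries of Atp6v1a within a few CPM of each other. The X-linked accessory protein Atp6ap2 had 225, 239.9 and 249.6 CPM with bortezomib and 144, 148 and 150.1 CPM with DMSO (log2 0.69, SE 0.14, adjusted p = 0.0135). Lamp2, also X-linked, had 619, 588 and 821 CPM against 424, 340.3 and 394 CPM (log2 0.81, SE 0.19, adjusted p = 0.0243). Neither overlapped between treatments.

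Ctss and Atp6v1h kept their calls without each library in turn and under every other alternative tried. The count of called members was 2 without knockout-labelled DMSO 2 and 4 without knockout-labelled DMSO 1, beside 182 and 303 of all genes. It was 10 (9 higher and 1 lower) without knockout-labelled bortezomib 3, beside 1040 genes. Without the 3 libraries that stood apart it was 13 (11 higher and 2 lower), beside 885 and 1017 of 16410 genes. Atp6v1a lost its call with the Xist share as a covariate (adjusted p = 0.0688). Of the 46 members 39 had a log2 fold change above 0, as did 8118 of the 16149 genes tested. The medians were 0.28 in the V-ATPase, 0.22 in the lumen and 0.47 in the membrane group, against 0.00 over all genes. In this genotype 2 of 12 tested monocyte and macrophage markers rose with bortezomib, Cd68 by 0.88 and Cd14 by 2.86. The median log2 fold change of the 12 was -0.30. Cd14 had 5.89 ± 2.55 CPM with bortezomib and 0.81 ± 0.0197 CPM with DMSO. Cd68, itself from the lysosomal membrane, had 56.3 ± 7.51 CPM with bortezomib and 30.6 ± 2.24 CPM with DMSO. The summed list had 301.6 to 682 CPM with bortezomib and 495.5 to 617 CPM with DMSO, and without Lyz2 it had 96.3 to 117 CPM with bortezomib and 65.4 to 89.1 CPM with DMSO, higher in every bortezomib library. The HSC markers Angpt1 (-0.97) and Hlf (-1.10), the megakaryocyte markers Vwf (-1.20) and Ppbp (-2.22) and the globin gene Hbb-bt (-2.55) fell. The part of these markers in the rises was not tested. Among other lumen genes 3 of 24 rose and 2 fell, where 3.63% of all genes passed. Lgmn had 19.9 ± 6.37 CPM with bortezomib and 3.46 ± 2.00 CPM with DMSO (log2 fold change 2.52). Scpep1 rose by 1.46 and the nuclease gene Dnase2a by 0.77, while Gm2a (-1.13) and Arsb (-1.31) fell. Igf2r fell here as well, with 3.10 ± 1.33 CPM with bortezomib and 10.8 ± 6.72 CPM with DMSO (-1.80). Tfec, a MiT-TFE factor, rose by 0.86. No other membrane gene, V-ATPase subunit, assembly factor or Ragulator gene passed the test.

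The bortezomib effect itself differed between genotypes for 8 members, tested as the interaction of genotype and treatment in edgeR, where 9.05% of all genes passed, 4.35% higher and 4.71% lower (702 and 760 genes, or 714 and 1411 with length and GC offsets). The effect was higher in knockout-labelled mice for 7 members and lower for 1, and the median interaction was 0.55 in the lumen, 0.33 in the membrane group and 0.16 in the V-ATPase, against 0.06 over all genes. Gaa had an effect of 0.60 in knockout-labelled mice and -0.54 in WT mice, and the difference was 1.14 on the log2 scale (SE 0.23, adjusted p = 0.0117). Neu1 had effects of 0.50 in knockout-labelled and -0.75 in WT mice, and Ids had effects of 0.21 in knockout-labelled and -0.90 in WT mice. For Gaa, Neu1 and Ids the bortezomib effect passed the test in WT mice and did not pass it in knockout-labelled mice. The knockout-labelled effect was 0.81 for Ctsl, against -0.35 in WT mice. It was 0.49 for Mcoln1, against -0.44 in WT mice, and 1.64 for Ctss, against 0.37 in WT mice. For Atp6v0a1 it was 1.12, against -0.22 in WT mice. Gusb was the 1 member with a lower effect in knockout-labelled mice, -0.61 against 0.49 in WT mice. By sign alone, 14 of 25 lumen members were above 0 in knockout-labelled and below 0 in WT mice, against 3 of 15 V-ATPase members, of which 10 were above 0 in both genotypes. Of all genes tested, 26.6% had the first of these patterns and 23.6% were above 0 in both. The interaction median of the V-ATPase stood 0.28 below that of the other members, and 0.057 below it with length and GC offsets. Each pairwise comparison of this experiment shares libraries with 2 of the others, so their counts are not independent.

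The interaction calls rested on few libraries. Gaa was the only one of the 8 that kept its call without each of the 12 libraries in turn (adjusted p up to 0.0453). The count fell to 1 without knockout-labelled DMSO 2, beside 352 of all genes. None was called with the Xist share as a covariate (adjusted p from 0.0637 for Gusb to 0.205 for Mcoln1), beside 276 of 16149 genes. Without the 3 libraries that stood apart, 17 members were called, 13 higher and 4 lower, beside 1891 and 2124 of 16410 genes. Among the other lysosomal lists, 5 of 24 lumen genes were higher and 1 lower in this test, where 9.05% of all genes passed. Scpep1 (1.95) and Ctsf (1.93) led the higher ones, against Arsb (-1.52). Of 19 membrane genes 4 were higher, Ctns (1.70), Cln3 (1.23), Tpcn2 (1.80) and Sidt2 (0.94). No gene of the other 5 lists passed. Among the cell markers Tek (1.55) and Col1a2 (2.26) were higher in this test, and Cd48 (-2.78), Hbb-bt (-4.14), Nkg7 (-1.80) and Vwf (-1.05) were lower. Their part in the lysosomal interactions was not tested.

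In the reporter experiment, HSCs sorted by RFP-EGFP-LC3 fluorescence did not differ detectably in any of the 46 genes. No member passed in any of the 3 comparisons, by edgeR or by DESeq2. Of all genes 0% passed between RFP single positive and double positive cells, 0% between RFP single positive and double negative cells, and 0.0065% (1 gene, Vwf) between double positive and double negative cells. At an unadjusted p under 0.05 there were 0, 1 and 4 members in these comparisons, beside 209, 1160 and 1315 of 15375 genes, and DESeq2 called 2, 36 and 94 genes.

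Between RFP single positive and double positive cells the members with the smallest p were Lipa, Atp6v1a and Asah1. Lipa had 63.8, 71.6 and 68.9 CPM in RFP single positive libraries and 89.9, 91.04 and 79.95 CPM in double positive libraries (log2 fold change -0.35, SE 0.20, adjusted p = 1). Atp6v1a had 143, 156 and 146 CPM against 176, 179 and 171 CPM in double positive libraries (log2 -0.24, SE 0.18, adjusted p = 1), and Asah1 had 152, 153 and 142 CPM against 166, 177 and 170.2 CPM (log2 -0.20, SE 0.15, adjusted p = 1). All 3 were lower in every RFP single positive library than in every double positive one, but none passed the test. In this comparison the groups did not overlap for 5 of the 46 members and for 7.36% of all genes. Between RFP single positive and double negative cells, Idua had 37.7, 43.4 and 39.95 CPM against 25.4, 22.1 and 33.1 CPM in double negative cells (log2 0.59, SE 0.27, adjusted p = 0.66). Gaa and Cd63 followed with log2 fold changes of 0.54 and -0.50 (adjusted p = 0.675 and 0.677), and their groups overlapped. Here 6 of the 46 members and 13.2% of all genes did not overlap.

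Double positive cells had values of 171, 234 and 191 CPM for Tpp1, against 136, 136 and 155 CPM in double negative cells (log2 fold change 0.48, SE 0.18, adjusted p = 0.555). For Lipa the values were 89.9, 91.04 and 79.95 CPM in double positive and 74.97, 52.6 and 55.8 CPM in double negative libraries (log2 0.51, SE 0.20, adjusted p = 0.558), and for Neu1 29.5, 37.4 and 28.6 CPM in double positive and 22.2, 19.1 and 21.7 CPM in double negative libraries (log2 0.60, SE 0.25, adjusted p = 0.558). The 3 genes were above the double negative range in each double positive library without passing the test, in a comparison where 6 of the 46 members and 11.2% of all genes did not overlap. The V-ATPase median stood 0.08 below that of the other members between RFP single and double positive cells. It stood 0.13 below between RFP single positive and double negative cells, and within 0.01 between double positive and double negative cells. In single libraries of this experiment, the gap between the median log2(CPM + 1) of these sets had a within-group SD of 0.26. Double negative replicate 1 stood apart on the first principal component of this experiment (score 73.2), and leaving out any single library changed no count of called members. Across the 3 comparisons the 95% intervals of the member fold changes reached from -1.42 to 1.30 on the log2 scale over all members, with a median SE of 0.20.

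**Figure D5:**
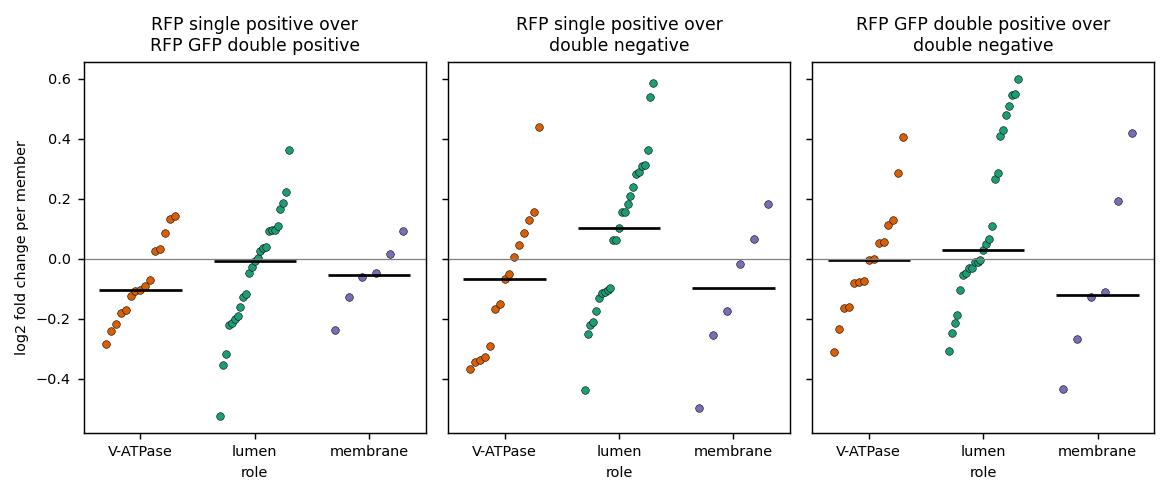
Log2 fold change of each member (points) by role in the 3 reporter comparisons, with the median of each role as a black line. Points lie between -0.52 and 0.60, medians lie between -0.12 and 0.10, and no point passed the test.

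Over all 8 comparisons, 29 of the 46 genes passed the test at least once and 17 in none. The same count was not made over all genes, of which 32.4% passed between genotypes with bortezomib. The 17 were the V-ATPase genes Atp6ap1, Atp6v0b, Atp6v0c, Atp6v0d1, Atp6v1b2, Atp6v1c1 and Atp6v1e1, the lumen genes Ctsa, Ctsb, Ctsc, Ctsz, Gla, Glb1, Npc2, Ppt1 and Smpd1, and the membrane gene Lamp1. Atp6v0b had 234, 205 and 321 CPM in knockout-labelled bortezomib libraries and 127, 189.8 and 153 CPM in knockout-labelled DMSO libraries. It had 248, 247 and 279.6 CPM in WT bortezomib and 134, 178 and 196 CPM in WT DMSO libraries. Every bortezomib library was above every DMSO library of its genotype, although the gene did not pass the test. Of all genes, 20.3% did not overlap between treatments in knockout-labelled mice and 36.9% in WT mice. Lamp1 varied less, with values between 359.6 and 452 CPM over the 12 libraries.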

How the data were processed

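Whole-number counts per gene for 21 libraries were analysed as deposited. The authors prepared RNA with the RNeasy Plus Micro kit and SMART-seq2, per the labels, and the counts were made with HTSeq 0.7.1, STAR 2.6.1 and Bowtie 1.0.0, per the submitters' processing notes, which name GRCm38.p4 and GRCh38 without roles. The annotation release was not given in the sources used here, nor was the strand setting. Reads were not analysed.

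Groups came from the labels. In R 4.3.3 with edgeR 4.0.16, each experiment had 1 quasi-likelihood fit (12 or 9 libraries) after filterByExpr and TMM, over 16149 and 15375 genes, with Benjamini-Hochberg adjusted p under 0.05 as the call. Scripts were tested on simulated data. CPM values use TMM-scaled library sizes, and TPM the longest protein-coding transcript of GENCODE M21 on GRCm38. No replicate pair agreed within sampling noise. List medians and counts are descriptions without a set test. The text names up to 8 called members each way by smallest p, or the 3 of smallest p where fewer were called, and up to 4 called genes per pathway list. Some genes of these lists are not reported here. Atp6v0b and Lamp1 in the last paragraph, and the 12 members plotted by group, were chosen after their values were seen. Members and lists were chosen with earlier results of these data known. Alternatives were RLE scaling, no filter, DESeq2 1.42.0, only the libraries compared, a replicate block, the Xist share as covariate, length and GC offsets (splines with 4 degrees of freedom), and left-out libraries. Figures used Python 3.11 with matplotlib 3.10.9.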

Additional observations from a re-analysis of the deposited data

Results flagged for a closer look

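For 8 members the bortezomib effect differed between genotypes, by the interaction test of edgeR at a Benjamini-Hochberg adjusted p under 0.05. The differences (knockout-labelled effect minus WT effect, log2) were 1.14 for Gaa (adjusted p = 0.0117), 1.35 for Atp6v0a1 (0.0155), 1.25 for Neu1 (0.0204) and 1.26 for Ctss (0.029). They were 1.16 for Ctsl (adjusted p = 0.0318), 1.12 for Ids (0.0477) and 0.93 for Mcoln1 (0.0493). Gusb differed the other way, by -1.10 (adjusted p = 0.028). The 8 genes stand against 9.05% of all genes that passed the same test. Knockout-labelled DMSO 2 was the library whose removal raised the adjusted p most for 6 of them, and WT bortezomib 1 for Ids and Mcoln1.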

How the results depend on the processing

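Direction under the alternatives was checked for the called members of each comparison, or the 3 of smallest p where fewer were called. None of these changed direction. Between genotypes with bortezomib, 13 of the 23 called members (Atp6v0a1, Atp6v1d, Ctss, Gaa, Gusb, Ids, Idua, Man2b1, Mcoln1, Neu1, Npc1, Psap and Tpp1) kept their calls under every alternative. Leaving out 1 library gave 15 to 23 called members, with 15 without WT bortezomib 1. Of all genes 5234 were called, and 3582 to 6000 with 1 library left out. For bortezomib in WT mice, 6 members were called, and 10 by DESeq2, 1 with the Xist share, 16 without the 3 libraries that stood apart and 0 to 11 with 1 library left out. The all-gene counts were 2508, and in the same order 3551, 1629, 3961 and 588 to 2762. For bortezomib in knockout-labelled mice, 7 were called, and 14 by DESeq2, 12 without a filter on low counts, 11 with length and GC offsets, 13 without the 3 libraries and 2 to 10 with 1 left out. The all-gene counts were 586, and in the same order 1283, 1085, 821, 1902 and 182 to 1040. For the interaction, 8 were called, and 0 with the Xist share, 17 without the 3 libraries and 1 to 10 with 1 left out. The all-gene counts were 1462, and in the same order 276, 4015 and 352 to 2820. The V-ATPase minus the other members moved to -0.41 with the Xist share (genotype under DMSO, -0.14 as reported), and with length and GC offsets to -0.024 (genotype under bortezomib, -0.32) and -0.057 (interaction, -0.28). The labels do not say that equal replicate numbers share a source. In the treatment experiment correlations of same-numbered deviations ran from -0.086 to 0.35. With the replicate block 10 members were called in WT and 12 in knockout-labelled mice for bortezomib, beside 3039 and 780 of all genes. In the reporter experiment 8 of 9 correlations were above 0 (-0.011 to 0.29), and the Xist share followed the number over the 3 fractions (0 to 10.2% for number 1, 88.1 to 99.9% for number 2 and 0 to 5.45% for number 3), a hint from the data of a shared source. With the replicate block no member was called there either. The causes of these moves were not tested. With 3 libraries a group, a median member had a standard error of 0.18 (treatment) and 0.20 (reporter) on the log2 scale.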
